A study of Homo sapiens with 9 samples.

Results

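The 9 genes described here act in the production of type I interferon or in the response to it. They are IFNB1, the receptor chains IFNAR1 and IFNAR2, STAT2, the interferon regulatory factors IRF1, IRF3, IRF7 and IRF9, and the RNA sensor IFIH1. They were found by matching the Ensembl IDs of the deposited tables to these symbols, and all 9 had a row among 63241. Each also had enough counts to be tested with 14592 genes. RNA came from MEG-01, an established human megakaryoblast line that was grown from chronic myeloid leukaemia in blast crisis, and each of 3 groups held 3 libraries: As2S2 (arsenic disulfide), PMA (phorbol 12-myristate 13-acetate, which activates protein kinase C and drives this line towards megakaryocytes) and untreated control. All groups share this line, which carries the BCR-ABL1 fusion of that leukaemia, and the labels give neither dose nor treatment time. The labels do not say that replicates were separate cultures, so p-values measure the spread between these libraries, which may be technical.

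Interferon beta, the IFNB1 product, binds a receptor made of the IFNAR1 and IFNAR2 chains. The receptor-bound kinases TYK2 and JAK1 then phosphorylate STAT proteins, and STAT2 joins IRF9 in a complex called ISGF3 that switches on interferon-stimulated genes. IRF3 and IRF7 act before the ligand: sensors of viral nucleic acid such as MDA5, the IFIH1 product, lead to their activation, and they switch on IFNB1. IRF1 is itself induced by interferons and drives genes of antigen presentation. In the megakaryocyte lineage, interferons are known for lowering platelet counts in patients treated with them.

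The libraries held 18.20 to 20.37 counts in all (units of 1e6). As2S2 replicate 1 and control replicate 2 were unlike the rest of their groups: replicate pairs that held one of them had a chi-square per gene of 12 or more, and the other replicate pairs of 2.42 to 3.46. On the third principal component As2S2 replicates 1, 2 and 3 lay at 19.68, -7.80 and -10.76, PMA replicates at 3.42, -0.59 and -1.18, and control replicates at 17.01, -29.82 and 10.05. Without both libraries the remaining As2S2 and control libraries are separated along this component as well, and PMA libraries lie below both remaining controls, so values without them cannot be told apart from that split. All 10 markers of the line were detected, with a summed level of 1500 to 1730 CPM (counts per 1e6) with As2S2, 1450 to 1480 CPM with PMA and 1430 to 1590 CPM in control. Single markers changed within these sums: 4 were higher and 3 lower with As2S2, and 4 were higher and 4 lower with PMA, among them ITGB3 (2.42) and ITGA2B (-1.05, log2 fold change with PMA). Beside them, 39.9% of all tested genes passed an adjusted p under 0.05 with As2S2 and 61.9% with PMA (edgeR). GP1BB, one of the 4 markers higher with PMA, had 4 counts over the 3 As2S2 libraries, all in replicate 1. It had about 283 over the PMA libraries and 8.62 over the controls, so only the PMA libraries gave it enough counts to be tested. In bulk RNA, a change in the number of cells that express a gene cannot be told apart from a change in RNA per cell.

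RefSeq promoter windows, from 250 bases before to 50 bases after the start of the transcript, were at hand for IFNB1, IRF1, IRF9, IFIH1, STAT2 and IFNAR1, 6 of the 9 genes. The 250 bases before the start are printed for 5 of them, because 4 of these genes were higher with PMA and the fifth, IFIH1, is the sensor that was lower with As2S2. Capitals mark 3 kinds of match on either strand. These are the interferon regulatory factor core AANNGAAA, the STAT element GAS (TTCNNNGAA) and the NF-kB motif, searched with its usual degenerate letters. The AP-1 motif TGANTCA was searched too. Sequences are credited to RefSeq, build GRCh38.p14, and run 5′ to 3′ along the gene's strand.

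IFNB1 promoter, chr9:21077943-21078192 (- strand): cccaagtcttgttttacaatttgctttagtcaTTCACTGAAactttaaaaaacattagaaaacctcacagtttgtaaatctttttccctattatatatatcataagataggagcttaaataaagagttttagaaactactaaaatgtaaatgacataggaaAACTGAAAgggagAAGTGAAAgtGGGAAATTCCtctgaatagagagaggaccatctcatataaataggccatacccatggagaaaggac
IRF1 promoter, chr5:132490774-132491023 (- strand): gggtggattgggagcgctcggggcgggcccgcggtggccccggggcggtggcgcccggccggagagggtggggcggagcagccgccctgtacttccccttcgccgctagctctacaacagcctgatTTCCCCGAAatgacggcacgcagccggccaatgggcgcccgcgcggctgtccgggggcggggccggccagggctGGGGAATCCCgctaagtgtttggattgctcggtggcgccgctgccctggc
IRF9 promoter, chr14:24161015-24161264 (+ strand): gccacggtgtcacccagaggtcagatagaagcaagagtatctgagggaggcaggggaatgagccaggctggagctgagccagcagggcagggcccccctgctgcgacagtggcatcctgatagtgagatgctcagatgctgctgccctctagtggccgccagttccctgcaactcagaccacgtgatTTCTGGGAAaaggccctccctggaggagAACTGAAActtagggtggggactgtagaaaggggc
IFIH1 promoter, chr2:162318685-162318934 (- strand): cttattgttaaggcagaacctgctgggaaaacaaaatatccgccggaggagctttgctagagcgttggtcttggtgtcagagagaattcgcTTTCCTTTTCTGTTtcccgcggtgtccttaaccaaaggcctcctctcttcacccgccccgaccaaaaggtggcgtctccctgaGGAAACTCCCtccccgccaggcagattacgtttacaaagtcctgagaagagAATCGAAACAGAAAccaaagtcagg
STAT2 promoter, chr12:56360108-56360357 (- strand): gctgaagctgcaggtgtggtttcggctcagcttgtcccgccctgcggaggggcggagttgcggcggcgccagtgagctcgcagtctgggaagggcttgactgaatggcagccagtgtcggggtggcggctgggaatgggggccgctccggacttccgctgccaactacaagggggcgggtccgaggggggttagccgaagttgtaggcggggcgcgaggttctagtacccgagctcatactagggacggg

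IFNB1 held 2 cores, AACTGAAA from -89 to -82 and AAGTGAAA from -76 to -69 relative to the start, beside an NF-kB match from -66 to -57 and a GAS match from -218 to -210. IRF1 held a GAS match from -124 to -116 and an NF-kB match from -50 to -41 but no core. IRF9 held a GAS match from -63 to -55 and a core from -35 to -28. IFIH1 held 4 cores in pairs that overlap by 2 bases, from -159 and -153 and from -25 and -19, and an NF-kB match from -76 to -67. None of the 4 motifs matched in the windows of STAT2 and IFNAR1, of which IFNAR1 had 2. Of 35116 windows of 300 bases, 22.8% held the core, 7.66% GAS, 11.3% NF-kB and 7.71% AP-1. A match describes letters and does not show binding.

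**Figure D1:**
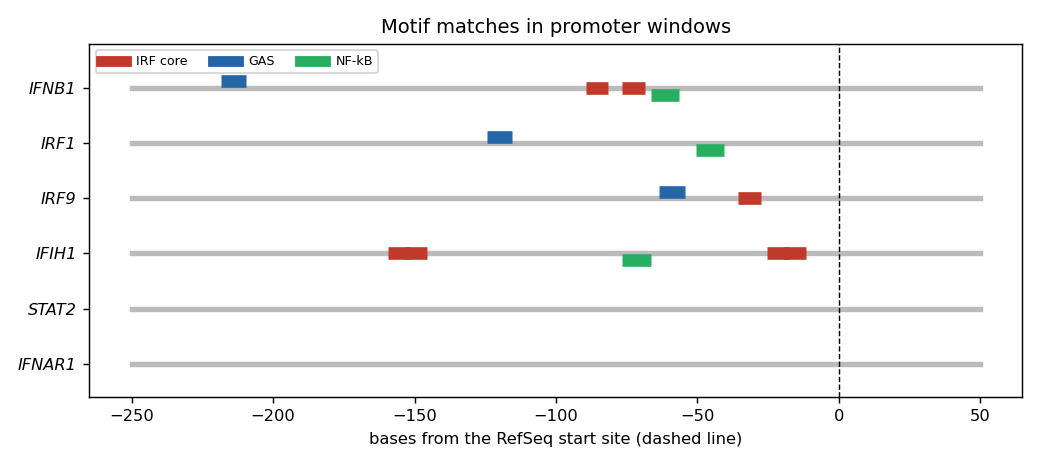
Motif matches in RefSeq promoter windows of 6 of the genes, plotted as bases from the transcript start (dashed line at 0); grey lines are the windows searched. IFNB1 has 2 interferon regulatory factor cores next to an NF-kB match, IFIH1 has 4 cores, and STAT2 and IFNAR1 have no match.

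The ligand IFNB1 (ENSG00000171855) was detected in every library at a low level. It had 6, 7 and 10 counts in As2S2 replicates 1 to 3, 31, 33 and 27 counts in PMA replicates 1 to 3, and 13, 7 and 15 counts in control replicates 1 to 3. PMA libraries all lay above the other groups, and As2S2 and control libraries overlapped. The filter on low counts was passed in 6 of the 9 libraries, of which 3 were PMA, 1 was As2S2 and 2 were control. IFNB1 averaged 1.76 ± 0.264 CPM with PMA and 0.543 ± 0.161 CPM in control (SD, n = 3 each). On the log2 scale it rose by 1.66 ± 0.34 with PMA (SE of the fit; adjusted p = 0.000442, edgeR). The summed counts, 91 with PMA and 35 in control, gave a ratio of 3.17 with a 95% exact Poisson interval of 2.12 to 4.82, which covers counting error only. With As2S2 the mean was 0.396 ± 0.112 CPM and the log2 fold change over control was -0.47 ± 0.41 (adjusted p = 0.393), with a count ratio of 0.717 (0.405 to 1.25), so at this depth no difference was detectable.

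The other interferon genes gave almost no reads. Of 20 listed, among them IFNG, IFNK, IFNE, IFNW1, 13 IFNA genes and IFNL1 to IFNL3, 13 were at 0 in all 9 libraries. The highest sum was 7 counts over the 9 libraries, for IFNK, and 0 of the 20 had enough counts to be tested.

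Of the receptor chains, IFNAR2 was higher with PMA and IFNAR1 was lower with As2S2. IFNAR2 (ENSG00000159110), the chain that binds interferon most tightly, had 53.4, 55.0 and 60.2 CPM with As2S2, 91.4, 100.5 and 90.9 CPM with PMA, and 50.2, 56.8 and 57.6 CPM in control. Every PMA library lay above every library of the other groups, while As2S2 and control overlapped. The log2 fold change was 0.78 ± 0.08 with PMA (adjusted p = 4.88e-07) and 0.03 ± 0.08 with As2S2 (adjusted p = 0.772, edgeR).

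IFNAR1 (ENSG00000142166), the chain that carries TYK2, had 63.5, 53.4 and 48.5 CPM with As2S2, 61.6, 59.5 and 59.5 CPM with PMA, and 77.3, 60.7 and 69.9 CPM in control. The lowest control library, replicate 2, lay below the highest library of each treatment. IFNAR1 fell by 0.33 ± 0.10 on the log2 scale with As2S2 (adjusted p = 0.0173), and its PMA value was -0.21 ± 0.10 (adjusted p = 0.0949, edgeR). Without As2S2 replicate 2 or 3, or control replicate 1 or 3, the As2S2 value lay between -0.32 and -0.24 and no longer passed the test. With the 2 unlike libraries left out, it was -0.53 (adjusted p = 6.86e-07) and the PMA value was -0.30 (adjusted p = 0.000128).

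**Figure D2:**
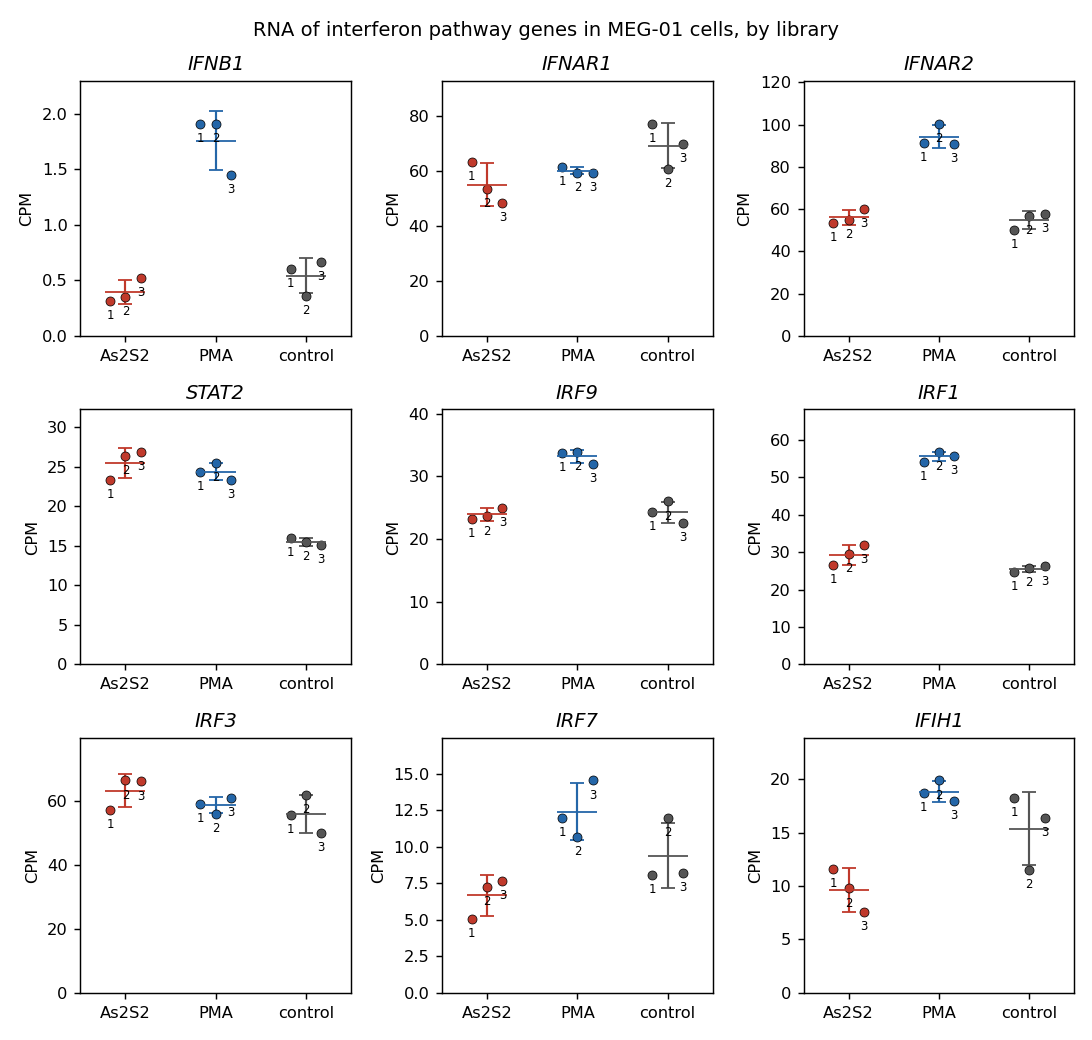
Level of each gene in CPM (y axis, starting at 0) in each library; points are libraries with their replicate numbers, bars are the mean and SD of 3 libraries, and groups run As2S2, PMA and control. PMA libraries lie above all others for IFNB1, IFNAR2, IRF9 and IRF1, whereas for STAT2 both treated groups lie above control.

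STAT2 (ENSG00000170581), the STAT protein found in ISGF3 with IRF9, was the member higher with both treatments. It had 23.4, 26.4 and 26.9 CPM with As2S2, 24.4, 25.5 and 23.3 CPM with PMA, and 16.03, 15.5 and 15.1 CPM in control. All 6 treated libraries lay above all 3 controls, and the treated groups overlapped. The log2 fold change was 0.72 ± 0.10 with As2S2 (adjusted p = 2.38e-05) and 0.65 ± 0.10 with PMA (adjusted p = 2.04e-05, edgeR).

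IRF9 (ENSG00000213928), the DNA-binding subunit of ISGF3, had 23.2, 23.6 and 25.1 CPM with As2S2, 33.8, 33.9 and 32.1 CPM with PMA, and 24.3, 26.0 and 22.7 CPM in control. PMA libraries did not overlap with the others, and As2S2 and control did. It rose by 0.45 ± 0.09 on the log2 scale with PMA (adjusted p = 0.000364, edgeR), and its As2S2 value was -0.02 ± 0.09 (adjusted p = 0.873).

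On counts both STAT2 and IRF9 were thus higher with PMA than in control, whereas with As2S2 STAT2 was higher and IRF9 did not pass the test. The receptor kinases TYK2 (0.47 ± 0.08) and JAK1 (0.34 ± 0.09) were higher with As2S2, with adjusted p = 0.000279 and 0.00525, although JAK1 was not called on log2(TPM + 1) (0.21, adjusted p = 0.177). With PMA, TYK2 was at 0.06 ± 0.08 (adjusted p = 0.57) and JAK1 at 0.21 ± 0.09 (adjusted p = 0.0399), a call that was lost without control replicate 2 (0.11, adjusted p = 0.19) and in several other settings. On log2(TPM + 1) the signs with PMA were the other way, at -0.33 for TYK2 (adjusted p = 0.00751) and -0.23 for JAK1 (adjusted p = 0.102, limma). Both lay near the median of all tested genes, which was -0.26 with PMA on that scale.

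IRF1 (ENSG00000125347), the factor that drives antigen presentation genes, had the lowest adjusted p of the 9 genes with PMA. It had 26.5, 29.6 and 31.8 CPM with As2S2, 54.2, 56.7 and 55.7 CPM with PMA, and 24.6, 25.8 and 26.2 CPM in control. The 3 groups did not overlap. IRF1 rose by 1.12 ± 0.09 on the log2 scale with PMA (adjusted p = 1.56e-08), a 2.17-fold difference. The As2S2 value was 0.20 ± 0.09 (adjusted p = 0.0908, edgeR), and it passed the test without As2S2 replicate 1 (0.27, adjusted p = 0.017). Estimated counts of IRF1 per unit of TPM (a level scaled to the library total and divided by the transcript length in use), centred on each library's median, were higher by 0.27 ± 0.05 (log2, SD) with PMA and by 0.10 ± 0.02 with As2S2 than in control. Over 9773 genes the median size of that shift with PMA was 0.04 and the 95th percentile 0.36.

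Genes on the opposite strand overlap IRF1, and the strand setting of the authors' counting is not given in the sources used here. The antisense gene IRF1-AS1 had 36.6 to 51.9 counts with As2S2, 110 to 133 with PMA and 50.7 to 61.3 in control. ENSG00000283782, also on the opposite strand, had 58.6 to 68.9 counts with As2S2, 38.5 to 49.0 with PMA and 134 to 174 in control. IRF1 itself had 508 to 608 counts with As2S2, 878 to 1035 with PMA and 499 to 588 in control. IRF3 overlaps BCL2L12, which had 1347 to 2376 counts. IRF9 and IFNAR2 share their strand with overlapping genes of 29.6 to 117 and 86.9 to 172 counts. The estimated counts of IRF1, IRF3, IRF9 and IFNAR1 were whole in 0 of 9 libraries, so reads shared between genes make these values less certain.

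IRF3 (ENSG00000126456), which is present before infection and is activated by phosphorylation, had 57.2, 66.4 and 66.1 CPM with As2S2, 59.0, 55.9 and 60.8 CPM with PMA, and 55.7, 62.0 and 49.9 CPM in control. All 3 groups overlapped. Its log2 fold changes were 0.18 ± 0.09 with As2S2 (adjusted p = 0.132) and 0.07 ± 0.09 with PMA (adjusted p = 0.529, edgeR). IRF3 with As2S2 reached 0.33 (adjusted p = 0.000255) with the 2 unlike libraries left out.

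IRF7 (ENSG00000185507), the interferon-inducible factor that amplifies interferon production, had 5.06, 7.25 and 7.69 CPM with As2S2, 11.97, 10.69 and 14.53 CPM with PMA, and 8.04, 11.95 and 8.19 CPM in control. As2S2 libraries lay below control libraries by a narrow margin, and PMA and control overlapped through control replicate 2. The log2 fold change was -0.49 ± 0.19 with As2S2 (adjusted p = 0.0471) and 0.41 ± 0.18 with PMA (adjusted p = 0.0571, edgeR). Without control replicate 2 the As2S2 value was -0.28 (adjusted p = 0.194) and the PMA value 0.61 (adjusted p = 0.00291). Without As2S2 replicate 1 the As2S2 value was -0.32 (adjusted p = 0.19), and without both it was -0.12 (adjusted p = 0.534).

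The sensor IFIH1 (ENSG00000115267) had 11.6, 9.77 and 7.53 CPM with As2S2, 18.69, 19.87 and 17.92 CPM with PMA, and 18.2, 11.5 and 16.4 CPM in control. Control replicate 2 lay just below the highest As2S2 library, and the other controls lay above all As2S2 libraries. IFIH1 fell by 0.68 ± 0.17 on the log2 scale with As2S2 (adjusted p = 0.00391), and its PMA value was 0.29 ± 0.16 (adjusted p = 0.125, edgeR). With the 2 unlike libraries left out, the As2S2 value was -0.99 (adjusted p = 5.22e-07).

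Across the 9 genes, As2S2 gave 1 higher (STAT2) and 3 lower (IFIH1, IFNAR1 and IRF7) at an adjusted p under 0.05. Among all tested genes 39.9% were called with As2S2, 20.3% higher and 19.6% lower. With PMA 5 were higher (IRF1, IFNAR2, STAT2, IRF9 and IFNB1) and 0 were lower (edgeR), against 61.9% called among all tested genes, 30.8% higher and 31.1% lower. At an unadjusted p under 0.05, 0 of the 9 were lower with PMA by edgeR as well, and DESeq2 called 5 higher and 0 lower. The authors' deposited table did have IFNAR1 with PMA at -0.23 with an adjusted p of 0.0435. The shares called are near those of all genes, so the number called is not a result about these genes. CPM of the groups did not overlap for 3 of the 9 with As2S2, against 45.8% of all tested genes, and for 5 with PMA, against 67.5%. The median log2 fold change over the 9 was -0.02 with As2S2 and 0.45 with PMA, and over all tested genes both medians were near 0. With the 2 unlike libraries left out, As2S2 gave 3 higher and 2 lower, and PMA gave 7 higher and 1 lower. Without As2S2 replicate 2, 2 of the 9 were called with As2S2.

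**Figure D3:**
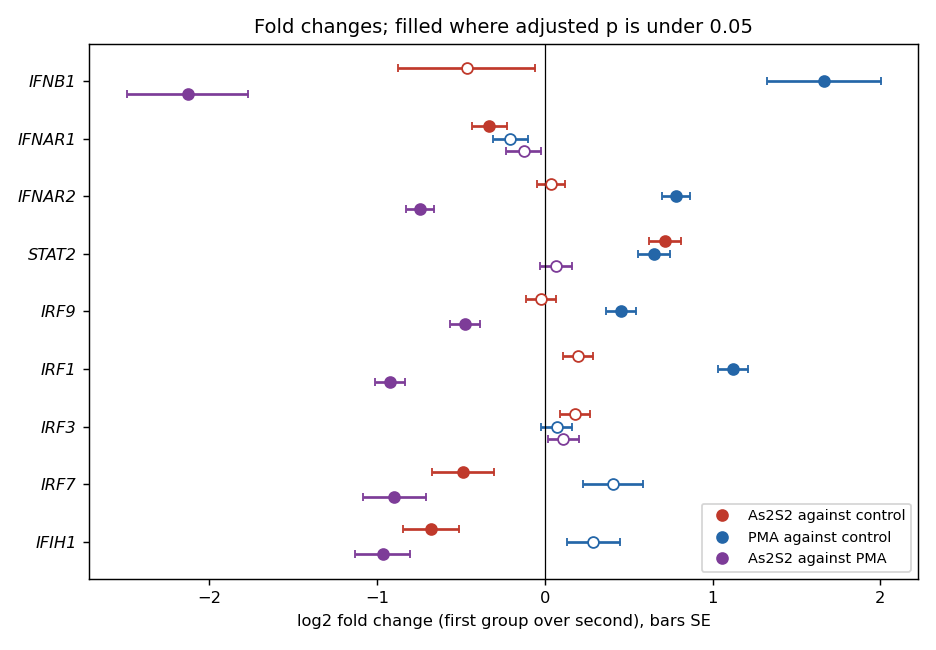
Log2 fold changes with SE (x axis) of the 9 genes in the 3 comparisons, 3 libraries per group; filled points have an adjusted p under 0.05 (edgeR). PMA values (blue) lie to the right of 0 for 8 of the 9 genes, As2S2 values (red) lie on both sides, and 6 of the 9 values of As2S2 against PMA (purple) are filled and lie to the left of 0.

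The PMA values depended on the scale. TPM moved the median of all tested genes by -0.07 with As2S2 and by -0.26 with PMA over control on log2(TPM + 1), on which fold changes of low genes are understated. The share of calls that were higher was 35.5% with As2S2 and 22% with PMA on that scale, beside 50.9% and 49.7% on counts. On TPM 3 of the 9 genes were higher with PMA and 2 lower, and 1 was higher with As2S2 and 2 lower. Relative to the median of all genes, the PMA differences were 0.61 for IRF1, 0.59 for IFNAR2, 0.91 for IFNB1, 0.35 for STAT2, 0.27 for IRF9 and 0.23 for IRF7. For IFIH1, IRF3 and IFNAR1 they were 0.16, -0.06 and -0.36, so IRF3 lay close to that median. Before that centring STAT2 was at 0.08 (adjusted p = 0.471) and IRF9 at 0.01 (adjusted p = 0.944, limma), so these 2 lost their PMA call, while IFNAR1 at -0.62 and IRF3 at -0.32 were called lower. STAT2 with As2S2 kept its call (0.46, adjusted p = 0.00476), as did IRF1 (0.35, adjusted p = 0.0132) and IFNAR2 (0.33, adjusted p = 0.00713) with PMA.

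Levels of different genes can be compared on TPM, which divides by length. IRF3 was the most abundant of the 9 in each group, at 50.6 ± 3.45 TPM with As2S2, 38.7 ± 0.54 TPM with PMA and 48.6 ± 3.62 TPM in control (SD, n = 3 each). IFNAR2 came next, at 27.2 ± 1.71, 38.1 ± 2.59 and 30.2 ± 3.10 TPM in the same groups, and overlapped with IRF3 in PMA libraries but in neither other group. IFNB1 was last at 0.517 ± 0.144 TPM with As2S2, 1.78 ± 0.217 TPM with PMA and 0.780 ± 0.265 TPM in control.

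Between these ends the order changed with treatment. In control it ran IFNAR1 (15.9 ± 2.25 TPM), IRF9 (14.3 ± 0.968), IRF1 (10.3 ± 1.02), IRF7 (5.74 ± 1.2), IFIH1 (4.83 ± 1.46) and STAT2 (3.43 ± 0.266 TPM), where the libraries of IFNAR1 and IRF9, IRF7 and IFIH1, and IFIH1 and STAT2 overlapped. With As2S2, STAT2 stood above IRF7 and IFIH1 without overlap, at 5.09 ± 0.0666 TPM against 3.80 ± 0.486 and 2.70 ± 0.630 TPM. With PMA, IRF1 at 13.4 ± 1.14 TPM stood above IFNAR1 at 9.99 ± 0.908 TPM without overlap.

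Set directly against PMA, As2S2 gave 0 higher and 6 lower of the 9 genes (edgeR, with no further gene at an unadjusted p under 0.05, and the same numbers by DESeq2). Among all tested genes 61.4% were called in this comparison, 30.9% higher and 30.6% lower. The log2 difference was -2.13 ± 0.36 for IFNB1 (adjusted p = 8.47e-05), -0.97 ± 0.17 for IFIH1, -0.92 ± 0.09 for IRF1, -0.90 ± 0.19 for IRF7, -0.75 ± 0.08 for IFNAR2 and -0.47 ± 0.09 for IRF9 (adjusted p = 0.000253). In each of these 6 genes every As2S2 library lay below every PMA library, which held for 67.2% of all tested genes in one direction or the other. STAT2 was at 0.07 with a 95% interval of -0.12 to 0.25, IRF3 at 0.11 (-0.07 to 0.29) and IFNAR1 at -0.13 (-0.33 to 0.08). On log2(TPM + 1), where the median of all genes moved by 0.18 and 72.0% of calls were higher beside 50.2% on counts, 2 of the 9 genes were higher and 5 lower.

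**Figure D4:**
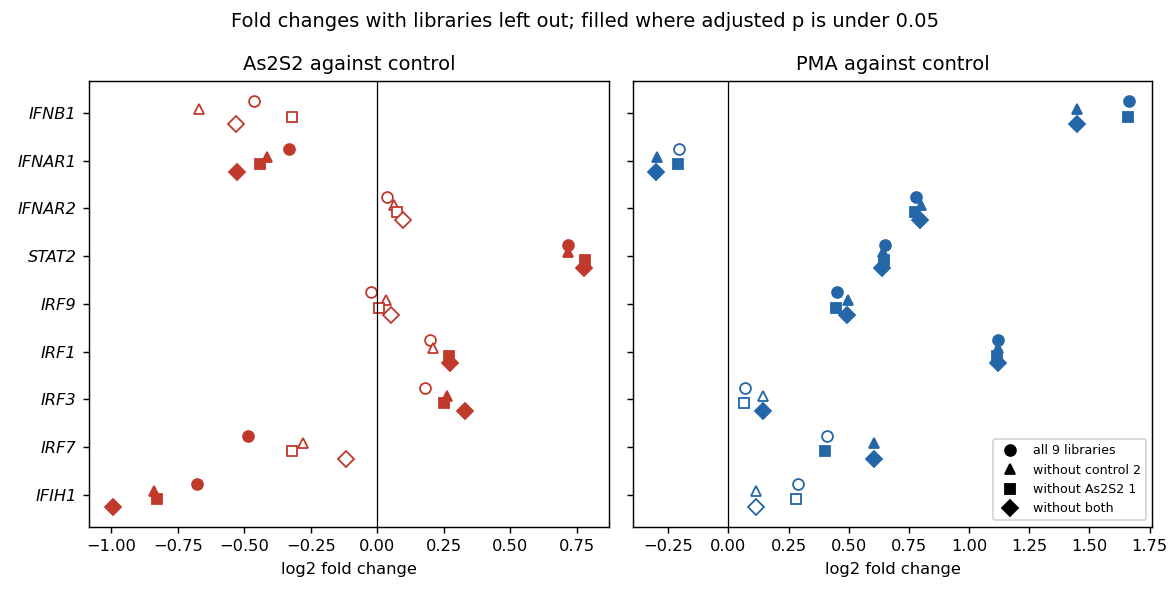
Log2 fold changes (x axis) over control of the 9 genes with all 9 libraries and without control replicate 2, As2S2 replicate 1 or both; filled symbols have an adjusted p under 0.05 (edgeR). Left panel As2S2, right panel PMA: IRF7 with As2S2 moves from -0.49 to -0.12 when both are left out, and IFIH1 and IFNAR1 move further below 0.

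In the authors' deposited table, IRF1 (log2 fold change 1.09, adjusted p = 7.68e-30) and IFNB1 (1.65, adjusted p = 0.00292) with PMA were the members marked as significant. STAT2 with As2S2 (0.71, adjusted p = 1.82e-06) was not marked in the authors' deposited table, where the smallest absolute log2 fold change among marked genes was 1. In the authors' deposited table IRF7 with As2S2 had an adjusted p of 0.0839. There IFNAR1 with PMA had a log2 fold change of -0.23 and an adjusted p of 0.0435, and was not marked.

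Most of the listed interferon-stimulated genes were lower with As2S2 and higher with PMA. Of 37, 3 were higher and 25 lower with As2S2 (median log2 fold change -0.59), and 31 were higher and 1 lower with PMA (median 0.82). Of all tested genes 20.3% were higher and 19.6% lower with As2S2, and 30.8% were higher and 31.1% lower with PMA. With As2S2 the lowest adjusted p belonged to the interferon-induced genes IFI6 (-1.32 ± 0.12), MX2 (-3.03 ± 0.28), ISG15 (-1.33 ± 0.12) and OAS1 (-1.23 ± 0.12). With PMA it belonged to RSAD2 (2.30 ± 0.09), IFI27 (1.72 ± 0.09), IFI6 (2.06 ± 0.11) and IFITM3 (1.92 ± 0.11). By TPM the PMA counts were 18 higher and 3 lower, with a median 0.50 above that of all genes. With the 2 unlike libraries left out they were 31 and 4.

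Genes of antigen presentation and others linked to IRF1, of which many are known targets of that factor, were mostly higher with PMA. Of 19, 16 were higher and 2 lower with PMA (median 1.23), and 5 were higher and 5 lower with As2S2 (median 0.04). All tested genes gave 30.8% higher and 31.1% lower with PMA, and 20.3% higher and 19.6% lower with As2S2. With PMA the guanylate-binding protein GBP2 was at 2.83 ± 0.12, HLA-B at 2.09 ± 0.09 and beta-2 microglobulin B2M at 1.90 ± 0.07, while WARS1, a tRNA synthetase that interferon gamma induces, fell by 2.77 ± 0.06. The other gene lower with PMA was CIITA (-1.63 ± 0.31), the regulator of class II genes. HLA genes resemble each other, and counts of HLA-B and HLA-C were whole in 0 of 9 libraries. By TPM, 12 of the 19 were higher and 3 lower with PMA.

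Of 19 sensors and adaptors that act before the ligand, 14 had enough counts. Of these, 0 were higher and 7 lower with As2S2 (edgeR; also 0 higher at an unadjusted p under 0.05 apart from MAVS at 0.18 ± 0.07, and 0 by DESeq2). With PMA 3 were higher and 7 lower. Among all tested genes 39.9% were called with As2S2 and 61.9% with PMA, so these counts are not read as a result about the list. The nuclear DNA sensor IFI16 was lower with both treatments (-1.57 ± 0.13 with As2S2 and -0.50 ± 0.12 with PMA). The adaptor STING1 was lower with As2S2 (-0.84 ± 0.09), as were the RNA sensors RIGI (-1.06 ± 0.30) and DHX58 (-0.73 ± 0.21), relatives of IFIH1. Both sensors were low, RIGI at 1.16 CPM with As2S2 and 2.43 in control, and DHX58 at 2.20 and 3.66 CPM. The DHX58 call with As2S2 was lost on log2(TPM + 1) (-0.47, adjusted p = 0.0939, limma). It was also lost without control replicate 1 (-0.57, adjusted p = 0.0619, edgeR). With PMA the DNA sensor CGAS fell by 1.28 ± 0.08, and the adaptor MYD88 (0.57 ± 0.10) and DHX58 (0.75 ± 0.19) were higher. By TPM 0 were higher and 7 lower with PMA (limma).

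Among 10 other STAT and JAK genes, 3 were higher and 2 lower with As2S2, and 3 were higher and 4 lower with PMA. The shares called of all tested genes were 39.9% with As2S2 and 61.9% with PMA. Neither these counts nor those of the receptor chains below are read as a result about a list. STAT5B, which carries signals of haematopoietic cytokines and of BCR-ABL1, was lower with both (-0.46 ± 0.06 with As2S2 and -0.80 ± 0.06 with PMA), and STAT5A was lower with PMA (-0.60 ± 0.07). JAK3 was higher with PMA (0.93 ± 0.16). Of 6 other receptor chains 5 had enough counts, with 2 higher and 1 lower for As2S2 and 4 higher and 0 lower for PMA (edgeR; 0 lower at an unadjusted p under 0.05 and by DESeq2). IL10RA, the interleukin 10 receptor chain, was higher with As2S2 (0.94 ± 0.08) and with PMA (0.28 ± 0.08). IL10RB, shared by interleukin 10 and interferon lambda receptors, was higher with As2S2 (0.22 ± 0.08, adjusted p = 0.0448) and with PMA (0.70 ± 0.08). On the TPM scale IL10RA with PMA (-0.21) and IL10RB with As2S2 (-0.004) and PMA (0.11) were not called, and IL10RB with As2S2 also lost its call without As2S2 replicate 2 or 3 (0.22 each) or control replicate 1 (0.17) or 3 (0.23). By limma on TPM, 0 of these 5 were higher and 1 lower with PMA.

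Of 8 other interferon regulatory factors and their binding proteins 6 had enough counts. Calls among all tested genes were 39.9% with As2S2 and 61.9% with PMA, and the counts here are not read as a result. With As2S2 4 were lower, among them the IRF2-binding proteins IRF2BP2 (-0.63 ± 0.08), IRF2BPL (-0.40 ± 0.11) and IRF2BP1 (-0.44 ± 0.14), and 0 were higher (edgeR; 0 at an unadjusted p under 0.05 and by DESeq2). With PMA, IRF2BPL was higher (0.85 ± 0.11) and IRF2BP1 lower (-0.44 ± 0.14). The 2 IRF2BP1 calls were lost without control replicate 2 (-0.26, adjusted p = 0.074 with As2S2 and -0.27, adjusted p = 0.05 with PMA).

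Of 9 feedback inhibitors, 4 were higher and 2 lower with As2S2 (39.9% of all tested genes were called), and 2 were higher and 4 lower with PMA (61.9% were called). By TPM 3 were higher and 2 lower with As2S2, and 0 were higher and 6 lower with PMA (limma). SOCS3, which blocks JAK activity at cytokine receptors, was higher with As2S2 (1.41 ± 0.09) and with PMA (0.50 ± 0.09). CISH was at 0.73 ± 0.11 with As2S2 and -1.11 ± 0.12 with PMA, and SOCS1, an inhibitor of JAK1 and TYK2, at 0.79 ± 0.16 and -0.90 ± 0.18. USP18, which binds IFNAR2 and blocks signalling, went the other way, at -1.05 ± 0.16 with As2S2 and 0.70 ± 0.15 with PMA. All 8 of these values passed the test. On log2(TPM + 1), SOCS3 (0.02) and USP18 (0.18) did not pass with PMA.

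**Figure D5:**
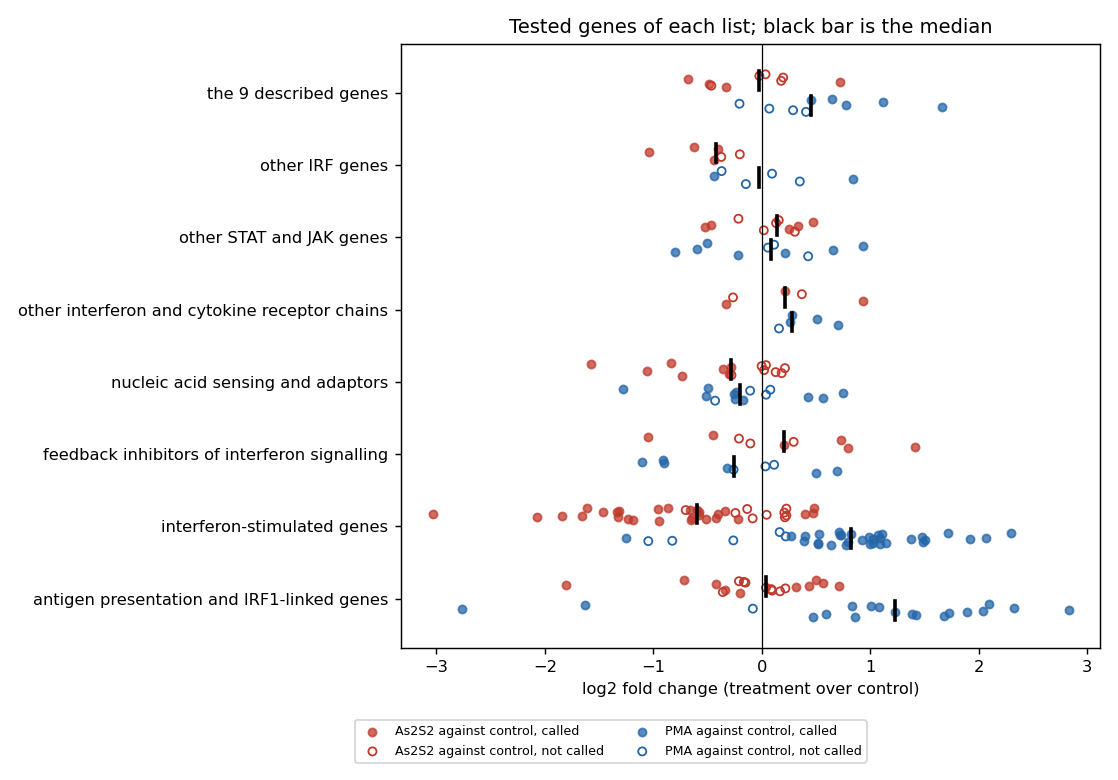
Log2 fold changes over control (x axis) of the tested genes of each list, with As2S2 in red above PMA in blue; filled points have an adjusted p under 0.05 (edgeR) and black bars are medians. Interferon-stimulated genes have a median of -0.59 with As2S2 and 0.82 with PMA, and antigen presentation and IRF1-linked genes have 0.04 and 1.23.

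Marker lists of other cell types moved with PMA too. The 10 monocyte and macrophage markers summed to 329 to 379 CPM with As2S2, 728 to 742 CPM with PMA and 278 to 318 CPM in control, nearly all of it CD68 and LYZ, which MEG-01 expresses without treatment. Of the 5 with enough counts 4 were higher and 0 lower with PMA (edgeR and unadjusted), and CD163 was at 0 in all groups. The share called of all tested genes was 61.9% with PMA. By TPM 1 of the 5 was higher and 0 lower with PMA (limma). VCAN and CSF1R were low, at means of 1.02 and 2.89 CPM with PMA. With 14 counts over the controls and 3 over the As2S2 libraries, VCAN had enough counts to be tested only through the PMA libraries. The number of these markers higher with PMA is thus not independent of the filter. The 7 plasmacytoid dendritic cell markers summed to 19.0 to 23.2 CPM with As2S2, 191 to 202 CPM with PMA and 18.9 to 26.1 CPM in control. GZMB alone averaged 184 CPM with PMA, while CLEC4C and LILRA4 were at 0 in all 9 libraries. The 10 lymphoid markers summed to 3.47 to 3.76 CPM with As2S2, 3.93 to 4.81 CPM with PMA and 1.2 to 1.65 CPM in control, with MS4A1 at 0. All 4 lymphoid markers with enough counts were called with PMA, with IL7R (2.79), CD3D (2.42) and NKG7 (1.87) higher and CD79A (-2.42) lower. Of all tested genes 61.9% were called, and the 4 calls are not read as a result. CD3D had enough counts only through the PMA libraries. All 4 were near the floor, at means of 0.233 to 0.437 CPM in control and 0.077 to 1.68 CPM with PMA. The 8 stromal and endothelial markers summed to 80.9 to 84.9 CPM with As2S2, 61.9 to 63.8 CPM with PMA and 65.2 to 79.6 CPM in control, most of it KDR, which was lower with PMA (-0.47). COL1A1, a collagen gene on the same list, was higher with PMA (5.83 ± 0.28, adjusted p = 2.7e-11, edgeR), at 11.1 CPM against 0.192 CPM in control. It had 12 counts over the controls and 24 over the As2S2 libraries, so only the PMA libraries gave it enough counts to be tested. Its call is therefore not independent of its PMA level. The part of these changes in the results above was not tested. Mitochondrial transcripts took 7.19% to 8.11% of counts with As2S2, 9.99% to 10.2% with PMA and 7.90% to 8.20% in control, and their part was not tested either.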

How the data were processed

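Poly(A)-selected RNA was sequenced from 9 MEG-01 libraries made with the NEBNext Ultra II kit, per the labels. The submitters' processing notes name fastp 0.22.0, DESeq2 and zebrafish builds, and the organism label of 1 control sample is not human, but the tables carry human Ensembl IDs. For aligner, counting tool, strand setting and annotation, nothing is given in the sources used here. The authors deposited estimated counts (expected counts, not normalized) and TPM per gene and library, per the file headers, with a fold ratio, a log2 fold change and adjusted p-values for each treatment. Of 63241 IDs, 62666 had a symbol in a gene name table.

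Counts were rounded, filtered with filterByExpr and scaled by TMM, and CPM use the TMM-scaled totals. All 9 libraries entered 1 quasi-likelihood fit (edgeR 4.0.16, R 4.3.3), with two-sided tests, Benjamini-Hochberg adjustment over 14592 genes and a threshold of 0.05. The fit was checked on simulated counts. SEs are those of the fit, and total counts per library were 18.20 to 20.37 in units of 1e6. TPM were tested with limma 3.58.1 as log2(TPM + 1). Overlaps come from GENCODE 29.

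The members, gene lists and alternatives were chosen with earlier results of these data known. Named genes are the 9 members, up to 4 genes per list with the smallest adjusted p in each treatment, JAK1 and TYK2, and the 3 genes most like each member. Some genes that this rule takes are not reported here. RIGI, DHX58, CIITA, USP18, SOCS1, MAVS, GZMB and the markers given with a value were also named after their values were seen where that rule did not take them. Alternatives were DESeq2 1.42.0, limma-voom, RLE scaling, upper-quartile scaling, TPM, other filters, a threshold of 0.01, the replicate number as a block, the 2 groups compared alone and libraries left out.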

Additional observations from a re-analysis of the deposited data

How the results depend on the processing

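Over 564 values of single members under alternatives, 494 kept their direction and side of the threshold, 23 lost and 29 gained the call, and 18 changed sign. The number of members called with As2S2 (4) lay between 2 and 5 with a library left out and was 2 at a threshold of 0.01. With PMA (5) it lay between 5 and 7 with a library left out and was 8 without both control replicate 2 and As2S2 replicate 1.

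Changes of sign were these. On log2(TPM + 1) and log2(TPM + 0.1), whose shift of all genes was larger for PMA, IRF1 with As2S2 was -0.027 and -0.029, IFNAR2 with As2S2 -0.14 and -0.15, IRF3 with PMA -0.32 and -0.33 (called, adjusted p = 0.0029 and 0.00291), IRF7 with PMA -0.036 and -0.041, IFIH1 with PMA -0.11 and -0.12, and IFNAR1 for As2S2 against PMA 0.26 and 0.28. With a library left out, IRF9 with As2S2 lay between -0.068 and 0.031, above 0 without As2S2 replicate 1 or control replicate 2, and was 0.053 without both. IFNAR2 with As2S2 lay between -0.018 and 0.076, below 0 without As2S2 replicate 3 or control replicate 1, and IRF3 with PMA between -0.010 and 0.142, below 0 without control replicate 3. None of these but IRF3 on TPM was called in either setting.

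IRF7 with As2S2 lost its call in 10 settings, among them a threshold of 0.01, limma-voom (adjusted p = 0.0577) and the 2 groups compared alone (adjusted p = 0.0536), and gained it with PMA in 10. The cause was not tested. IFIH1 with As2S2 and IRF1, IFNAR2 and IFNB1 with PMA were called in every setting in which they were tested; the stricter filter removed IFNB1.

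Deviations of same-numbered libraries from their group means correlated at -0.073 to 0.149 between groups. The labels give no batch, and with 3 libraries per group these values cannot show whether same-numbered libraries were paired. With the replicate number as a block, 5972 genes were called with As2S2 and 9180 with PMA, against 5821 and 9034 without the block, and 9044 against 8966 for As2S2 against PMA. The block added IRF7 with PMA (0.41, adjusted p = 0.0306, edgeR) and changed no other member's call. IFNB1, with 6 to 33 counts per library, is the member that depth limits most.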

Other observations

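IFNB1 lies in the interferon cluster on the short arm of chromosome 9, next to genes that have no interferon role. The list held 8 neighbours, all tested, of which HACD4 was also listed under an older name. Shares called among all tested genes were 39.9% with As2S2 and 61.9% with PMA. With As2S2 0 were higher and 4 lower (edgeR; 0 higher at an unadjusted p under 0.05 and by DESeq2), and with PMA 4 were higher and 2 lower. CDKN2B, an inhibitor of the kinases CDK4 and CDK6, had a log2 fold change of -1.36 ± 0.11 with As2S2 (adjusted p = 9.68e-08) and 1.43 ± 0.10 with PMA (adjusted p = 2.62e-09). MTAP, a methionine salvage enzyme, was lower with both treatments (-0.42 ± 0.09 with As2S2 and -0.43 ± 0.10 with PMA), and MLLT3, a regulator of blood stem cells, was at -0.42 ± 0.13 and 0.74 ± 0.12. The MLLT3 call with As2S2 was lost without As2S2 replicate 2 or 3 or control replicate 1.

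Patterns over the 9 libraries were compared by Pearson's r of log2 CPM with 9775 genes of at least 5 CPM on average, as a description, since the 9 libraries fall into 3 groups. Among the genes most like IRF1 was HEXIM1 (r = 0.995), and those most like IFNAR2 were TAP1 (0.995) and PSMB9 (0.991). STAT2 was most like THBS1 (0.993), IRF9 like C11orf98 (0.989), IRF7 like FAM174C (0.986), IFNAR1 like BRIX1 (0.987), IFIH1 like ENPP3 (0.983), IFNB1 like F2RL2 (0.978) and IRF3 like TMUB2 (0.957). Among the members, r was 0.984 for IRF1 and IFNAR2, 0.958 for IRF9 and IFNAR2, 0.949 for IRF1 and IRF9, and 0.930 for IFNAR2 and IFNB1. For the pair of receptor chains, IFNAR1 and IFNAR2, it was -0.208, and for STAT2 and IRF9 it was 0.400.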
